A study of Mus musculus with 16 samples.

Results

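The miRNAs miR-23, miR-27 and miR-24 come from 2 short clusters of hairpins, and 10 mature miRNAs of these clusters were followed among the 1377 miRNA names of a small RNA count table. They were taken by name. Specific to cluster a are mmu-miR-23a-3p, mmu-miR-23a-5p, mmu-miR-27a-3p, mmu-miR-27a-5p and mmu-miR-24-2-5p, and specific to cluster b are mmu-miR-23b-3p, mmu-miR-27b-3p, mmu-miR-27b-5p and mmu-miR-24-1-5p, while mmu-miR-24-3p is made by both. The prefix for mouse is left out below. Dendritic cells were cultured from bone marrow, after lysis of red cells, of wild-type C57BL/6 mice, male where stated. The groups were quercetin followed by LPS, quercetin alone, LPS alone and untreated control, with 4 libraries in each, 1 from each of 4 mice. Quercetin, a plant flavonol given as its aglycone, was added at 25 µM on days 5 and 7 of culture. LPS, the TLR4 ligand of Gram-negative bacteria, was added at 1 µg/mL for 6 h on day 8. Mice 1 to 3 were 8 weeks old and mouse 4 was 7 weeks old, so that age cannot be told apart from this mouse. Counts of mice and of pairs below follow the mouse numbers of the labels. These are in doubt at least for control 3 and control 4. Control 3 correlated with the libraries of mouse 4 (r 0.469 to 0.671) and not with those of mouse 3 (-0.465 to -0.174). Where groups did not overlap, the count of mice is the same under any pairing.

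A miRNA hairpin yields a 5p and a 3p arm. The arm that is mostly loaded into Argonaute is called the guide, and the other, the passenger, is mostly degraded. In these hairpins the 3p arms are the usual guides. In blood cells the transcription factor PU.1 induces cluster a, which favours myeloid over B-lymphoid development. miR-27 targets include Pparg and Runx1, and miR-23b restrains inflammatory signalling through Tab2, Tab3 and Chuk.

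The mature sequences below show how alike the copies of the 2 clusters are, which limits how reads can be told apart. They are RefSeq sequences on build GRCm38.p6, found for 9 of the 10 members, written 5′ to 3′ with the seed, bases 2 to 8, in capitals. miR-23b-3p is given by name only.
miR-23a-3p: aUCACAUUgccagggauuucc
miR-27a-3p: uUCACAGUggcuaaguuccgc
miR-27b-3p: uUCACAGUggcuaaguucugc
miR-24-3p: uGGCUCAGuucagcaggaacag
miR-23a-5p: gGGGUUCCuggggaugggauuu
miR-27a-5p: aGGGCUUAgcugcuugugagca
miR-27b-5p: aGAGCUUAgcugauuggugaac
miR-24-2-5p: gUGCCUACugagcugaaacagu
miR-24-1-5p: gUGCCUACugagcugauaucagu
The guides miR-27a-3p and miR-27b-3p share their seed and their first 18 bases and differ by 1 base, C19U, with the base of miR-27a-3p first and positions counted from the 5′ end. Reads that end before that base fit both, so the split between these 2 rows is uncertain. The 3p side of the Mir23b hairpin repeats the start of miR-23a-3p, seed included, and departs from it only near the 3′ end. Short reads therefore fit both miR-23 guides, and the split between miR-23a-3p and miR-23b-3p is uncertain too. The passengers miR-27a-5p and miR-27b-5p differ at 8 positions, the first of them in the seed (G3A). miR-24-2-5p and miR-24-1-5p share their first 16 bases. Among the other miRNAs of the count table with a sequence there, 0 have one of these seeds.

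The hairpin of miR-27a is printed because the arm comparison turns on it, with both arms in capitals, and the miR-24 hairpins because they carry the same guide, miR-24-3p, in capitals.
Mir27a: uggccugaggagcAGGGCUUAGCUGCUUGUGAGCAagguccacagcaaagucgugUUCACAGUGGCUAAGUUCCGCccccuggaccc
Mir24-2: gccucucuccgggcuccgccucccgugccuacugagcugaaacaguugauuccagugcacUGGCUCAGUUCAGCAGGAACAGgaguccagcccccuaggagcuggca
Mir24-1: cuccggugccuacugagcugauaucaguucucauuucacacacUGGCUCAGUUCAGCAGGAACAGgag
Per RefSeq, Mir23a, Mir27a and Mir24-2 lie on the plus strand of chromosome 8 (GRCm38.p6) at chr8:84208518-84208592, chr8:84208672-84208758 and chr8:84208815-84208921, a span of 404 bases. In the GENCODE M21 annotation Mir24-2 overlaps an exon of the noncoding RNA gene Gm26532. Mir23b, Mir27b and Mir24-1 lie on the plus strand at chr13:63300484-63300557, chr13:63300712-63300784 and chr13:63301208-63301275, spanning 792 bases. Mir23b is in an intron of the protein-coding gene 2010111I01Rik, Mir27b and Mir24-1 overlap annotated exons of it, and the gene Fancc runs antisense. The submitters' processing notes name mm9, and the count table holds no coordinates. Because miR-24-3p is identical from both hairpins, its counts cannot be assigned to a cluster.

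**Figure D1:**
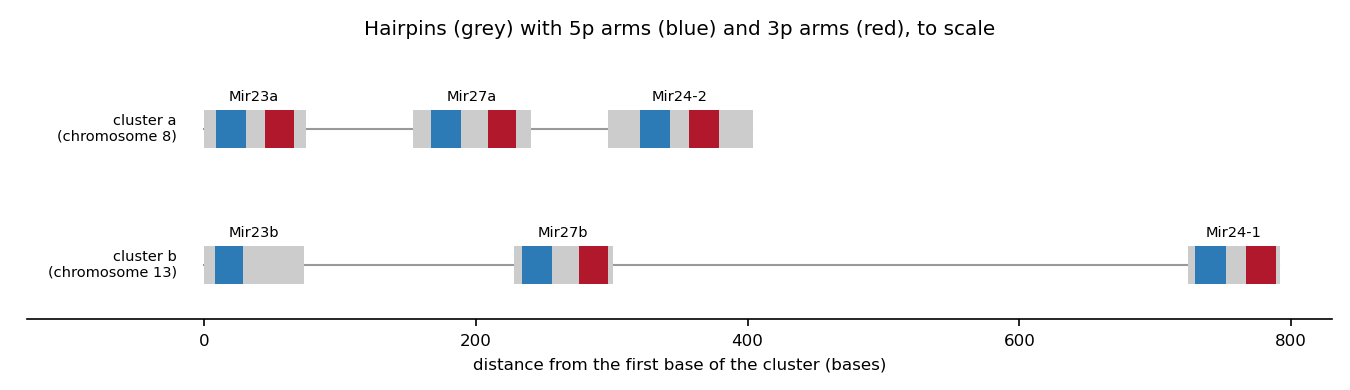
Hairpins of the 2 clusters (grey boxes) with their 5p (blue) and 3p (red) arms, drawn against the distance from the first base of each cluster in bases, with arms shown where a mature sequence was matched. Cluster a spans 404 bases and cluster b 792 bases.

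Counts per library totalled 6459654 to 13949915, and 825 to 999 miRNAs were detected. Depth was mostly lower with quercetin, at 6459654 to 9041030 counts, against 8668512 to 13949915 without it. The part of depth in the results below was not tested. The myeloid marker miRNAs summed to 54030 to 104600 CPM (counts scaled to a common library total) in quercetin plus LPS, 51920 to 61110 in quercetin, 59680 to 95610 in LPS and 51570 to 85240 in control libraries, and of the 8 tested 1 fell in quercetin vs control. The lymphocyte markers summed to 374.2 to 1023 CPM over all libraries, and neither of the 2 passed in any comparison. The erythroid markers moved with quercetin: all 5 rose, both without and with LPS, and summed to 2343 to 5843 CPM in quercetin plus LPS, 5042 to 13120 in quercetin, 864.9 to 2797 in LPS and 775 to 1769 in control libraries. Of 8 stromal and endothelial markers, 4 rose in quercetin plus LPS vs LPS and 0 in quercetin vs control, with sums of 145.2 to 4545, 122.5 to 1278, 60.74 to 117.1 and 76.58 to 485 CPM in quercetin plus LPS, quercetin, LPS and control libraries. Of the 568 miRNAs tested, 8.98% fell and 6.87% rose in quercetin vs control, and 8.63% rose in quercetin plus LPS vs LPS. The part of cells other than dendritic cells in the results below was not tested. In such bulk libraries, fewer cells of a type and less RNA per cell cannot be told apart.

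Levels below are CPM with TMM scaling, and changes are log2 fold changes with their standard error (SE) from a quasi-likelihood fit in edgeR to all 16 libraries. Adjusted p-values are from this test with Benjamini-Hochberg adjustment over the 568 miRNAs that passed the filter on low counts, which included all 10 members, and the threshold was 0.05. Overlap between groups was looked at for the members and miR-23b-5p only. It therefore has no share over all miRNAs beside it and describes the values without testing them.

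The clusters were a substantial part of the miRNA pool, and most of it was miR-27b-3p. The 10 members held 6.47% ± 1.01 of counts in quercetin plus LPS, 6.30% ± 0.505 in quercetin, 7.85% ± 1.45 in LPS and 8.01% ± 1.05 in control libraries (SD, n = 4). miR-27b-3p made up 83.15% to 88.03% of the members' counts in every library. In control cells it ranked 4 of the 568 miRNAs by mean level, followed among the members by miR-27a-3p at rank 29, miR-23a-3p at 39, miR-23b-3p at 41 and miR-24-3p at 47. The 5p arms were rarer, with miR-27b-5p at rank 113, miR-24-2-5p at 120, miR-27a-5p at 163, miR-24-1-5p at 299 and miR-23a-5p at 469. In controls miR-27b-3p averaged 70066 ± 13670 CPM and miR-27a-3p 4473 ± 900.5 CPM, while miR-23a-3p (2473 ± 407), miR-23b-3p (2402 ± 382) and miR-24-3p (1948 ± 466) had ranges that overlapped each other (SD, n = 4).

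**Figure D2:**
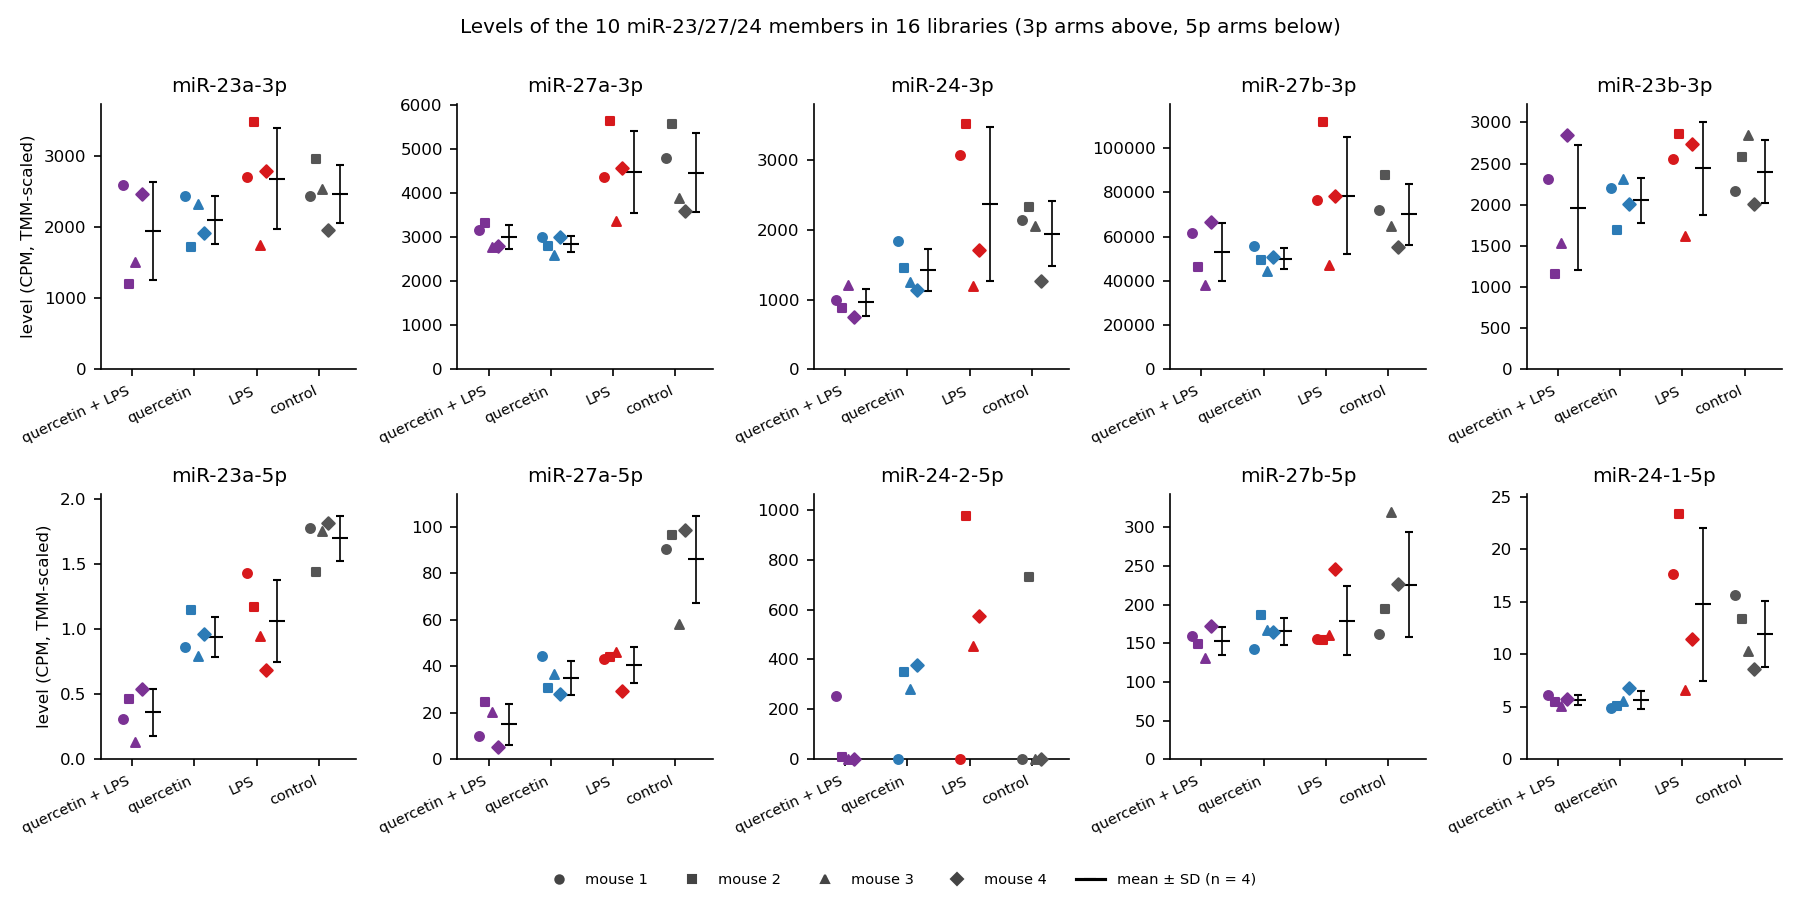
Levels of the 10 members in CPM with TMM scaling (linear axes from 0), 1 symbol per mouse, in the 4 groups, with mean ± SD (n = 4) beside the points except for miR-24-2-5p, which was at 0 in 7 libraries. The quercetin plus LPS libraries are lowest for miR-27a-5p (5.25 to 24.6 CPM) and miR-23a-5p (0.130 to 0.538 CPM), and the control libraries highest.

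The first question was what quercetin did to the guide arms. miR-27a-3p, which lies in cluster a and shares its seed with miR-27b-3p, fell both without and with LPS. Its level was 2998, 2811, 2602 and 3003 CPM in the quercetin libraries of mice 1 to 4, against 4810.1, 5582, 3897 and 3603 CPM in control libraries. With LPS it was 3173, 3322, 2775 and 2795 CPM in quercetin plus LPS, against 4378, 5648, 3370.5 and 4578 CPM in LPS libraries. All 4 mice were lower with quercetin each time and the groups did not overlap. Short reads of miR-27b-3p fit this row too, so the fall cannot be assigned to cluster a alone. The log2 fold change was -0.65 ± 0.19 in quercetin vs control (adjusted p = 0.0262 by edgeR) and -0.58 ± 0.19 in quercetin plus LPS vs LPS (adjusted p = 0.0362). The sizes depended on the scaling: they were -0.44 and -0.30 with upper quartile scaling and -0.52 and -0.27 with library size scaling. The call with LPS was lost on leaving out any 1 of the 16 libraries (-0.51 to -0.27, adjusted p 0.0698 to 0.414) and under 5 other settings, namely RLE (DESeq2's size factors), upper quartile or library size scaling, no filter, and DESeq2 (adjusted p 0.0770 to 0.312), and the call without LPS was lost when control 1, control 2 or any of the quercetin libraries was left out (-0.65 to -0.52, adjusted p 0.0531 to 0.120), with upper quartile scaling (0.162) and without the filter (0.109).

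miR-24-3p, the guide of both clusters, fell with quercetin in LPS-treated cells. It was at 989, 879, 1217 and 753 CPM in quercetin plus LPS, against 3072, 3523, 1194 and 1715 CPM in LPS libraries, a log2 fold change of -1.31 ± 0.31 (adjusted p = 0.00782 by edgeR). Mice 1, 2 and 4 were lower and mouse 3 was not, and the groups overlapped at LPS 3, which lay below quercetin plus LPS 3. The call was lost without LPS 1, LPS 2 or quercetin plus LPS 4 (-0.99 to -0.88, adjusted p 0.0530 to 0.0739). Without LPS it was at 1835, 1450.5, 1256 and 1145 CPM in quercetin, against 2137, 2328, 2059 and 1269 CPM in control libraries, lower in 4 of 4 mice with overlapping groups, and did not pass (-0.45 ± 0.31, adjusted p = 0.358). Its quercetin effect was not shown to differ between LPS states (interaction -0.85 ± 0.43, adjusted p = 0.893).

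miR-27b-3p, the dominant member, was lower in 4 of 4 mice in both comparisons but passed in neither alone. It was at 55659, 49396, 44425 and 50687 CPM in quercetin, against 71860.03, 87933, 64972 and 55498 CPM in control libraries (-0.49 ± 0.24, adjusted p = 0.204 by edgeR). With LPS the values were 61561, 46198, 38166 and 66552 CPM in quercetin plus LPS, against 76526, 111626, 46961 and 78513 CPM in LPS libraries (-0.56 ± 0.24, adjusted p = 0.0957). In both comparisons the groups overlapped. Averaged over the LPS states, miR-27b-3p fell by 0.52 on the log2 scale (SE 0.17, adjusted p = 0.0235), a call lost without any 1 of 13 libraries (adjusted p 0.0636 to 0.149), and kept without control 4, LPS 3 or quercetin plus LPS 1. It was also lost under the same 5 other settings (adjusted p 0.0536 to 0.291).

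The miR-23 guides, which in human cells repress glutaminase and are repressed by Myc, did not pass in any comparison. miR-23a-3p ran from 1207 to 2594 CPM in quercetin plus LPS, 1722 to 2439 in quercetin, 1749 to 3479 in LPS and 1964 to 2955 in control libraries. Its log2 fold change was -0.23 ± 0.26 in quercetin vs control (adjusted p = 0.607 by edgeR) and -0.46 ± 0.26 in quercetin plus LPS vs LPS (adjusted p = 0.223). miR-23b-3p ran from 1159 to 2842, 1692 to 2315, 1619.6 to 2863 and 2012 to 2851 CPM in quercetin plus LPS, quercetin, LPS and control libraries. It differed by -0.23 ± 0.26 (adjusted p = 0.619) and -0.32 ± 0.26 (adjusted p = 0.432) in the same 2 comparisons.

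The cluster a passengers miR-27a-5p and miR-23a-5p were lowest where both agents were given. miR-27a-5p was at 9.99, 24.6, 20.2 and 5.25 CPM in quercetin plus LPS, 44.4, 30.5, 36.8 and 27.97 CPM in quercetin, 43.1, 44.0, 45.9 and 29.3 CPM in LPS and 90.5, 96.3, 58.3 and 98.5 CPM in control libraries. Every control library was above every library given an agent, and every quercetin plus LPS library was below all of the others. With quercetin it fell in 4 of 4 mice without LPS (-1.30 ± 0.36, adjusted p = 0.0221 by edgeR) and with LPS (-1.43 ± 0.37, adjusted p = 0.0124). The first call was lost on leaving out control 1, control 2, quercetin 2, quercetin 3 or quercetin 4 (-1.28 to -1.18, adjusted p 0.0550 to 0.0789), and the second without LPS 1, LPS 2 or quercetin plus LPS 1 (-1.23 to -1.12, adjusted p 0.0583 to 0.0660). With library size scaling alone the adjusted p was 0.0636 without and 0.0635 with LPS.

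miR-23a-5p, the passenger of the neighbouring hairpin, had the same order of group means at 1 to 23 counts per library. It was at 0.309, 0.465, 0.130 and 0.538 CPM in quercetin plus LPS, 0.861, 1.15, 0.794 and 0.960 CPM in quercetin, 1.43, 1.17, 0.952 and 0.690 CPM in LPS and 1.78, 1.44, 1.76 and 1.82 CPM in control libraries. The groups did not overlap in either quercetin comparison. It fell in quercetin plus LPS vs LPS (-1.54 ± 0.40, adjusted p = 0.0124 by edgeR) but did not pass in quercetin vs control (-0.84 ± 0.34, adjusted p = 0.120). The call was lost without LPS 1, LPS 2 or quercetin plus LPS 1 (-1.33 to -1.17, adjusted p 0.0529 to 0.0726) and without the filter on low counts (0.0873). The corresponding arm of Mir23b, miR-23b-5p, which is not a member, was at 0 to 2.39 CPM. Its means were also lowest in quercetin plus LPS (0.40) and highest in control libraries (1.43), with 0.68 in quercetin and 0.48 in LPS. The groups overlapped and it passed in no comparison. In LPS vs control it differed by -1.53 ± 0.66 (unadjusted p = 0.0339, adjusted p = 0.944 by edgeR).

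Of the cluster b passengers, miR-24-1-5p fell and miR-27b-5p did not pass. It lay between 4.92 and 6.84 CPM in all 8 quercetin-treated libraries, with and without LPS. It was at 6.18, 5.46, 5.08 and 5.79 CPM in quercetin plus LPS, against 17.6, 23.4, 6.58 and 11.5 CPM in LPS libraries (-1.39 ± 0.33, adjusted p = 0.00758 by edgeR). Without LPS it was at 4.92, 5.13, 5.56 and 6.84 CPM in quercetin, against 15.6, 13.3, 10.3 and 8.57 CPM in control libraries (-1.09 ± 0.32, adjusted p = 0.0292). Neither pair of groups overlapped, and all 4 mice were lower each time. The first call was lost without LPS 1 or 2 (-1.10 to -0.90, adjusted p 0.0532 to 0.0701) and the second when control 1, control 2 or any of the quercetin libraries was left out (-1.16 to -0.91, adjusted p 0.0543 to 0.0990), with upper quartile scaling (0.0701) or without the filter (0.0632). miR-27b-5p, at 131 to 172 CPM in quercetin plus LPS, 142 to 187 in quercetin, 154 to 246 in LPS and 162 to 320.3 in control libraries, did not pass in either (-0.23 ± 0.23, adjusted p = 0.525 with LPS, and -0.45 ± 0.23, adjusted p = 0.223 without).

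Counted together, 3 of the 10 members fell and 0 rose in quercetin vs control, where 8.98% of the 568 miRNAs tested fell, 6.87% rose and 15.8% passed in either direction. These were both arms of miR-27a and miR-24-1-5p. In quercetin plus LPS vs LPS, 5 members fell and 0 rose, the same 3 with miR-23a-5p and miR-24-3p, where 14.3% of all miRNAs fell, 8.63% rose and 22.9% passed. The median log2 fold change of the members was -0.47 without LPS, against -0.05 over all miRNAs tested, and -0.94 with LPS, against -0.13. Averaged over LPS states 6 members fell, against 20.1% of all miRNAs lower and 36.3% past the threshold, with medians of -0.75 for the members and -0.10 for all miRNAs. Among the members past the threshold, the largest averaged falls were those of miR-27a-5p (-1.37 ± 0.26, adjusted p = 7.4e-04 by edgeR), miR-24-1-5p (-1.24 ± 0.23, adjusted p = 6.3e-04) and miR-23a-5p (-1.19 ± 0.26, adjusted p = 0.00242), followed by miR-24-3p (-0.88 ± 0.22, adjusted p = 0.00551) and miR-27a-3p (-0.61 ± 0.13, adjusted p = 0.00211). These 5 averaged calls were kept on leaving out any 1 library. Leaving out 1 library at a time, the counts of members past the threshold ran from 0 to 3 without LPS, 0 to 4 with LPS and 5 to 6 averaged. The split of all calls depended on the scaling. In quercetin vs control 39 miRNAs were higher and 51 lower with TMM, but 48 and 29 with upper quartile scaling. In quercetin plus LPS vs LPS they were 49 and 81 with TMM, 67 and 66 with RLE, 71 and 54 with upper quartile and 75 and 50 with library size scaling, and averaged 92 and 114 with TMM, 125 and 75 with upper quartile and 120 and 85 with library size scaling. With library size scaling the median of all miRNAs in quercetin plus LPS vs LPS was 0.15 in place of -0.13. The called members stayed below 0 under each of these.

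**Figure D3:**
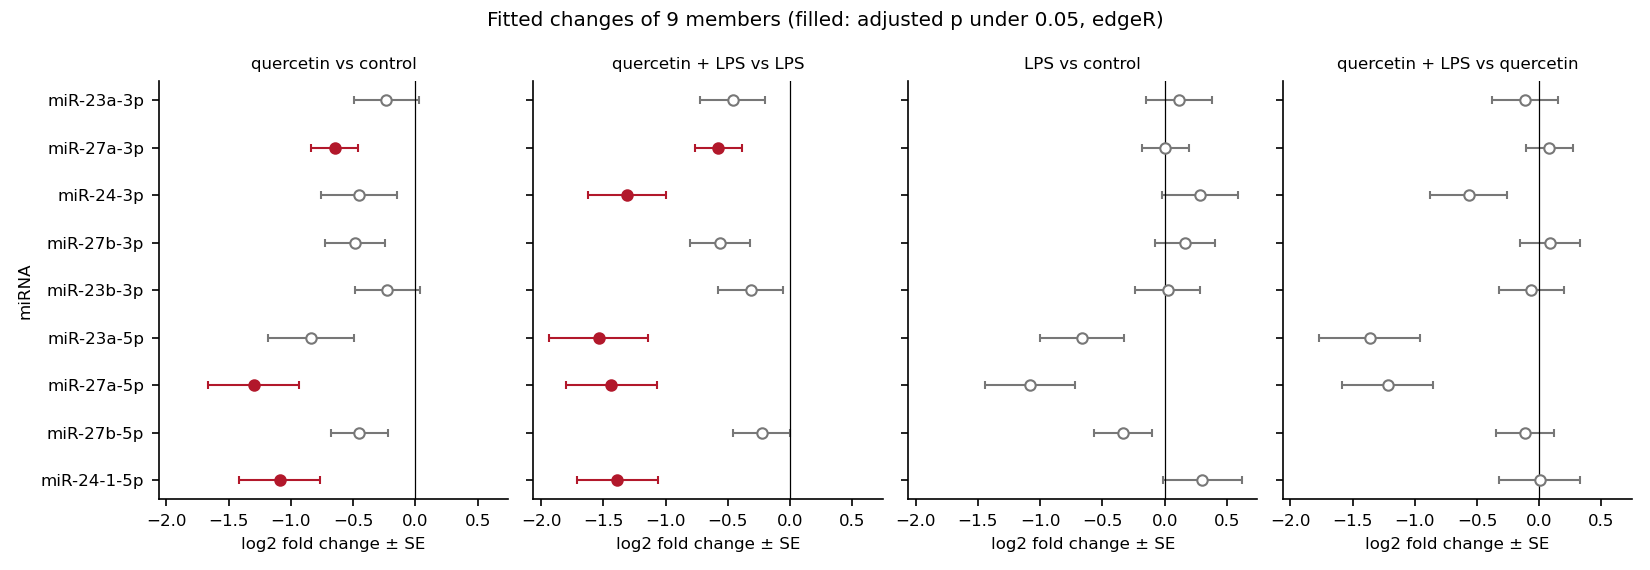
Log2 fold change ± SE (x axis) of 9 members (rows) in 4 comparisons, with filled red symbols for an adjusted p under 0.05 by edgeR and open grey symbols otherwise; miR-24-2-5p is not drawn. In quercetin vs control 3 members and in quercetin plus LPS vs LPS 5 members are filled, all below 0, and none is filled in the LPS comparisons.

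The next question was what LPS did after 6 h. No member passed in LPS vs control, where 3 miRNAs (0.528%) passed by edgeR and 26 had an unadjusted p under 0.05, 1 of them a member, while DESeq2 called 6 and limma-voom 3, none of them members. The guides miR-27a-3p, miR-27b-3p and miR-24-3p did not pass, with log2 fold changes of 0.01 ± 0.19, 0.16 ± 0.24 and 0.29 ± 0.31. The passengers miR-27a-5p (-1.08 ± 0.36, unadjusted p = 0.00855, adjusted p = 0.420 by edgeR) and miR-23a-5p (-0.66 ± 0.33, unadjusted p = 0.0637, adjusted p = 1.00) were lower in 4 of 4 mice with groups that did not overlap. How many of all miRNAs were free of overlap was not counted. miR-24-1-5p differed by 0.30 ± 0.32 and miR-27b-5p by -0.33 ± 0.23. In quercetin plus LPS vs quercetin, where 2 miRNAs (0.352%) passed by edgeR and 41 had an unadjusted p under 0.05, no member passed either, by edgeR, DESeq2 (4 called) or limma-voom (2 called). There miR-23a-5p (-1.36 ± 0.41, unadjusted p = 0.00403) and miR-27a-5p (-1.22 ± 0.37, unadjusted p = 0.00427) both had an adjusted p of 0.347 by edgeR. Both were again lower in 4 of 4 mice and without overlap. miR-24-3p was at -0.57 ± 0.31 (adjusted p = 0.683). A comparison averaged over the states of the other agent was run for quercetin only, so quercetin and LPS were not tested alike on levels. No miRNA passed for the interaction of LPS and quercetin by edgeR, DESeq2 or limma-voom, and 26 of 568 (0 members) had an unadjusted p under 0.05 by edgeR.

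A ratio of counts within a library does not depend on scaling between libraries, for arms of a hairpin and for cluster copies alike. For 8 such ratios, the 5p arm over the 3p arm or the cluster a copy over the cluster b copy, the effects of quercetin and of LPS on the log2 ratio were tested by exact permutation within each state of the other agent (two-sided, libraries taken as unrelated, 0.5 added to each count), with Benjamini-Hochberg adjustment over the 16 tests. The smallest p this design can give is 0.000408. Effects are means over the 4 mice with their SE. This SE pairs libraries by mouse number, in doubt at least for control 3 and control 4, while the exact p does not. SE and exact p therefore measure different spreads. Permuting signs within the 4 mice cannot give a p below 0.125, and 0 of the 16 tests passed in that form. The ratios use the same counts as the levels above and are not independent of them.

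miR-27a-5p was lower relative to the row of its own guide with either agent. Short reads of the far more abundant miR-27b-3p fit that row too, so the guide's count in this ratio is uncertain. Per 100 counts of miR-27a-3p there were 0.315, 0.741, 0.727 and 0.188 counts of miR-27a-5p in quercetin plus LPS, 1.48, 1.08, 1.41 and 0.932 in quercetin, 0.986, 0.779, 1.36 and 0.640 in LPS and 1.88, 1.73, 1.496 and 2.73 in control libraries. The control libraries were again above all others, and the groups given 1 agent overlapped each other. LPS lowered the log2 ratio (-1.29 ± 0.37, exact permutation p = 0.000408, the smallest possible, adjusted p = 0.00653), in 8 of 8 pairs of libraries from the same mouse and quercetin state. Quercetin lowered it too (-0.88 ± 0.29, exact permutation p = 0.00408, adjusted p = 0.0218), also in 8 of 8 pairs. The LPS effect passed without any 1 library, and the quercetin effect was lost without control 4, LPS 1, 2 or 3 or quercetin 4 (-0.91 to -0.78, adjusted p 0.0522 to 0.0679).

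Calls for the miR-23a arms rested on single libraries, and those of miR-27b did not pass. Short reads fit both miR-23 guides, so the count of miR-23a-3p used here is uncertain. miR-23a-5p per 100 counts of miR-23a-3p averaged 0.0202 ± 0.0134 in quercetin plus LPS, 0.0465 ± 0.0154 in quercetin, 0.0414 ± 0.0146 in LPS and 0.0709 ± 0.0180 in control libraries (SD, n = 4). LPS lowered this log2 ratio in 8 of 8 pairs (-0.99 ± 0.18, exact permutation, adjusted p = 0.0218) and quercetin in 6 of 8 (-0.78 ± 0.46, adjusted p = 0.0435). With 5 in place of 0.5 added to each count both were lost (adjusted p = 0.0614 for LPS and 0.611 for quercetin). The LPS effect was also lost without control 4, LPS 2 or quercetin 4 (adjusted p 0.0522 to 0.0566), and the quercetin effect without any 1 of 12 libraries (adjusted p 0.0614 to 0.0927), being kept without control 2, LPS 4, quercetin 2 or quercetin plus LPS 2. miR-27b-5p over miR-27b-3p did not pass for quercetin (0.19 ± 0.30, adjusted p = 0.686) or LPS (-0.30 ± 0.08, lower in 7 of 8 pairs, adjusted p = 0.457). For miR-24-1-5p over miR-24-3p, a ratio added after the data were seen, the values were -0.33 ± 0.14 for quercetin (exact permutation p = 0.0959) and 0.29 ± 0.11 for LPS (p = 0.142).

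**Figure D4:**
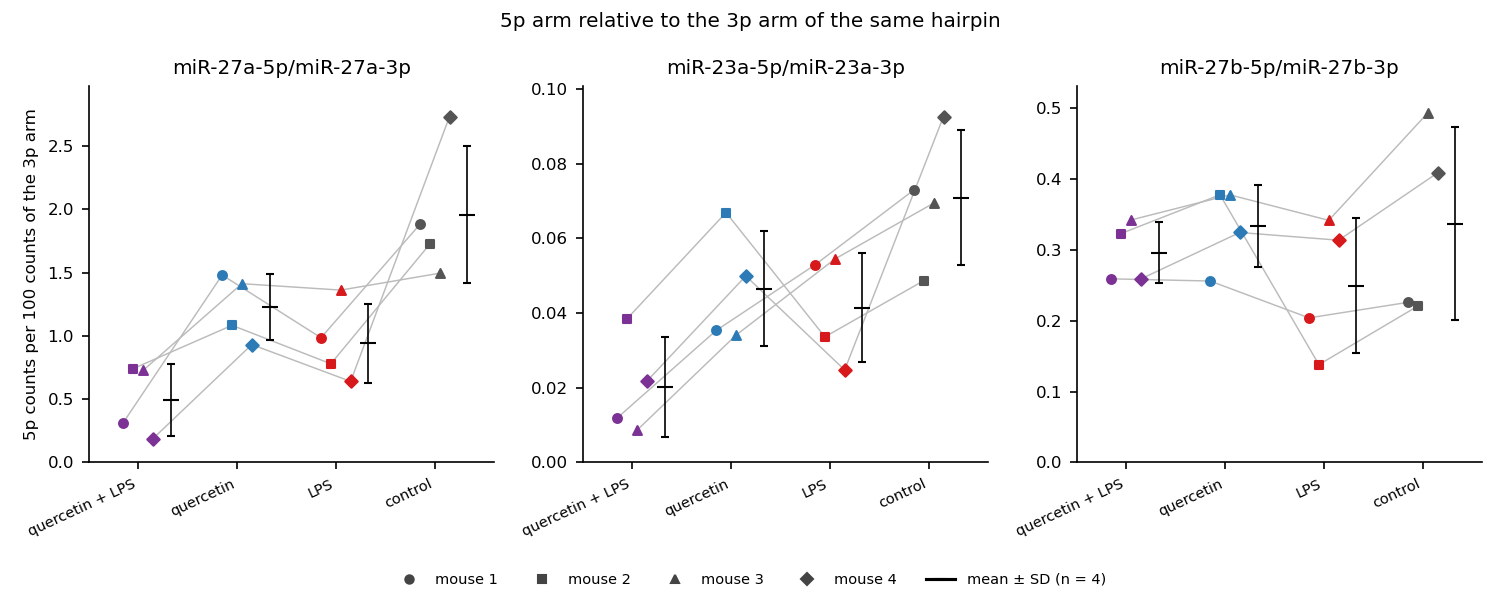
Counts of the 5p arm per 100 counts of the 3p arm of the same hairpin (linear axes from 0), 1 symbol and grey line per mouse, with mean ± SD (n = 4) in black. For miR-27a the 4 control libraries (1.496 to 2.73) are above all others and the quercetin plus LPS libraries (0.188 to 0.741) include the lowest values, while the groups overlap for miR-27b.

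Between clusters, the guide ratios did not pass for either agent. Short reads fit both copies of each guide, so these ratios rest on an uncertain split. There were 87.1 to 121 counts of miR-23a-3p per 100 counts of miR-23b-3p over the 16 libraries, with a quercetin effect of -0.07 ± 0.06 (exact permutation, adjusted p = 0.663) and an LPS effect of 0.03 ± 0.04 (adjusted p = 0.804) on the log2 ratio. For miR-27a-3p there were 4.20 to 7.27 counts per 100 of miR-27b-3p, with effects of -0.09 ± 0.11 (adjusted p = 0.686) and -0.04 ± 0.13 (adjusted p = 0.804). In quercetin vs control alone this ratio differed by -0.16 (exact permutation p = 0.0286, unadjusted, the smallest that 4 against 4 libraries allow). The passenger ratio was lower with either agent. miR-27a-5p per 100 counts of miR-27b-5p was 6.26, 16.5, 15.5 and 3.04 in quercetin plus LPS, 31.2, 16.3, 21.9 and 17.0 in quercetin, 27.6, 28.6, 28.6 and 11.9 in LPS and 55.8, 49.7, 18.2 and 43.5 in control libraries. Quercetin lowered this log2 ratio in 7 of 8 pairs (-1.16 ± 0.30, exact permutation, adjusted p = 0.0327) and LPS in 6 of 8 (-1.04 ± 0.53, adjusted p = 0.0435). The exceptions were mouse 3 without LPS for quercetin, and mouse 3 without quercetin and mouse 2 with quercetin for LPS. Both exceptions in mouse 3 use control 3, a library whose label and correlations differ. With 5 added to each count the adjusted p was 0.0522 and 0.0614. The quercetin effect was lost without any 1 of 11 libraries (adjusted p 0.0549 to 0.0718) and kept without control 3, LPS 4, quercetin 1 or quercetin plus LPS 2 or 3, and the LPS effect was lost without any 1 of 13 (adjusted p 0.0631 to 0.101) and kept without control 3 or quercetin plus LPS 2 or 3.

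**Figure D5:**
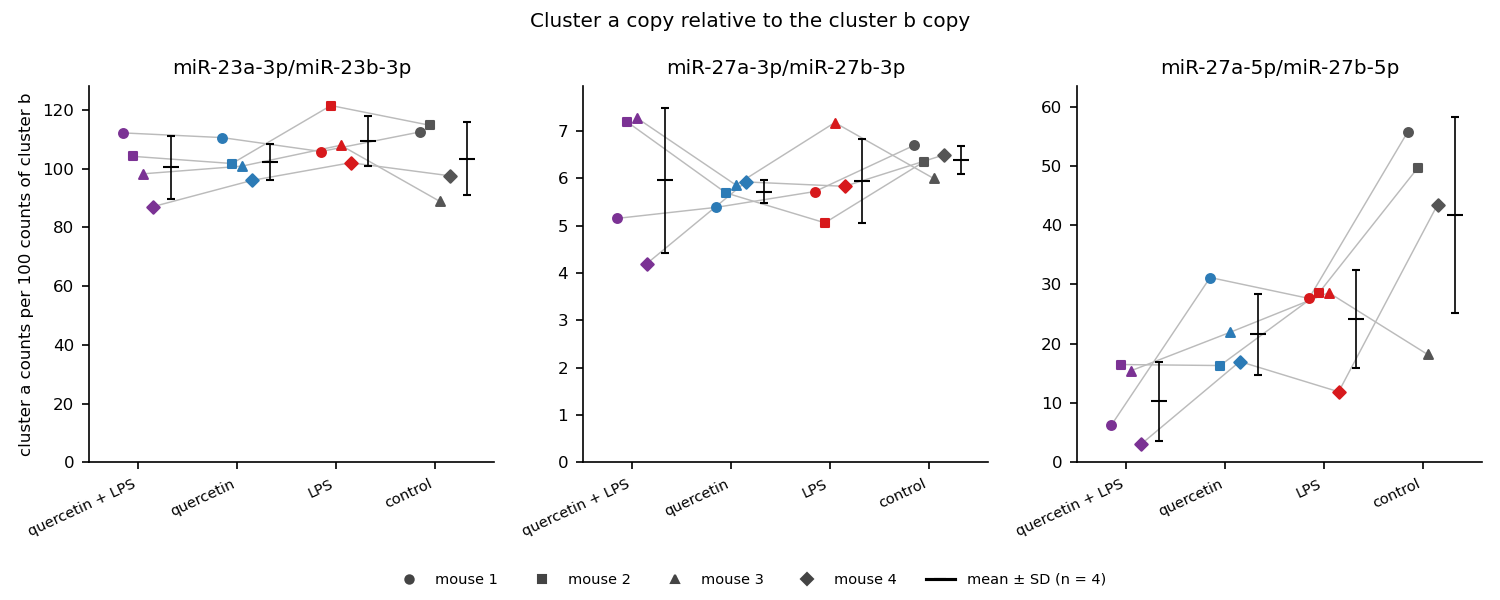
Counts of the cluster a copy per 100 counts of the cluster b copy (linear axes from 0), 1 symbol and grey line per mouse, with mean ± SD (n = 4) in black. The guides stay between 87.1 and 121 for miR-23 and between 4.20 and 7.27 for miR-27, while the miR-27 passengers run from 3.04 in quercetin plus LPS to 55.8 in control libraries.

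miR-24-2-5p, the passenger of Mir24-2, could not be compared between groups. It was at 255, 9.17, 0 and 0 CPM in quercetin plus LPS, 0, 348, 284 and 378 CPM in quercetin, 0, 973, 455 and 575 CPM in LPS and 0, 728, 0 and 0 CPM in control libraries. It had no count in 7 libraries, where a count of 0 allows up to 0.232 to 0.404 CPM by counting error alone (3 counts), 79 counts in 1 and 2479 to 9991 counts in the other 8, and these did not follow the groups or the mice. Among the 1372 names kept for the fit, no other had at least 1000 counts in 1 library and 0 in another, and 0 showed the opposite pattern. In the table as deposited, miR-6993-3p and miR-1839-5p, left out because their counts look exchanged, did so too, but followed quercetin. Its log2 fold change in quercetin vs control was 0.47 ± 2.39 (adjusted p = 0.919 by edgeR), and its ratios to miR-24-1-5p and, summed with that arm, to miR-24-3p did not pass (exact permutation, adjusted p 0.804 to 0.863). Leaving this row out changed no other member's call.

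By pattern over the 16 libraries, the miRNAs most like cluster b were miR-146b-5p (Pearson r = 0.945), miR-340-3p (0.938) and miR-10a-5p (0.935), among 304 miRNAs with a mean of at least 10 CPM. The profile was the mean of the centred log2 CPM of the cluster's specific members. For cluster a the r was at most 0.616 (miR-7068-3p), followed by miR-22-3p (0.612) and miR-708-5p (0.590). Without miR-24-2-5p it was highest for miR-212-3p (0.883), miR-146b-3p (0.873) and miR-342-5p (0.856). After subtracting the group means the r of miR-342-5p was -0.10, while that of miR-212-3p was 0.898 and that of miR-146b-5p with cluster b 0.917. These r describe libraries that share groups, mice and depth, and carry no test.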

How the data were processed

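Mature miRNA reads were counted by the authors in 16 small RNA libraries (miRNeasy RNA, TruSeq Small RNA kit, per the labels' protocols). The deposited table holds counts, not normalised. Cutadapt and the build mm9 are named, per the submitters' processing notes; the aligner, the counting rule and the versions are not given in the sources used here. Of 1381 rows and 1377 names, 1 row with text among its counts and 4 rows of neighbours with exchanged counts (miR-6993-3p with miR-1839-5p, miR-700-3p with miR-654-3p) were left out, and 4 names on 2 rows each were summed, leaving 1372. None is a member. The exchange followed quercetin: miR-6993-3p had 53324 counts in the 8 libraries with quercetin and 1 in the 8 without, and miR-1839-5p 8 and 58806. A difference in how these libraries were tabulated therefore cannot be told apart from quercetin; with all rows as deposited no member's call changed.

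The members and lists were chosen with earlier results of these data known. The myeloid markers were both arms of miR-223, miR-142a and miR-511, with miR-146a-5p and miR-155-5p. The erythroid ones were miR-451a, both arms of miR-144, miR-486a-5p and miR-486b-5p. The stromal and endothelial ones were miR-143-3p, miR-214-3p and both arms of miR-145a, miR-199a and miR-126a. The lymphocyte ones were both arms of miR-150. Beside these markers, the named miRNAs were the 10 members, their neighbour miR-23b-5p and the 3 most like each cluster. Counts were filtered with filterByExpr by group (568 kept), scaled by TMM and fitted with edgeR 4.0.16 (glmQLFit and glmQLFTest) in R 4.3.3 with 1 coefficient per group, tested on simulated data first. Ratios were tested in Python 3.11.15 and numpy 2.4.6. Alternatives were other scalings, no filter, DESeq2 1.42.0, limma-voom (limma 3.58.1), the mouse as a block, leaving out each library and, chosen after seeing the data, leaving out miR-24-2-5p. The floor of 3 counts for miR-24-2-5p covers counting error only, while SE and SD include the spread between libraries.

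Cells came from 4 mice, per the series' design text, and sample titles carry the number of a mouse. Libraries with equal numbers were taken as paired in the counts of mice and pairs, the SE of the ratios and the block alternatives. The main edgeR fit and the exact permutation took all libraries as unrelated. Deviations from group means correlated at a mean r of 0.14 over 24 same-mouse pairs (-0.465 to 0.645) and -0.04 over 72 others (-0.583 to 0.671). Control 3 and control 4 correlated below 0 with all libraries of their own mouse (-0.465 to -0.149). Control 3 correlated at 0.469 to 0.671 with the libraries of mouse 4. Control 4 correlated at 0.359, 0.025 and 0.545 with LPS 3, quercetin 3 and quercetin plus LPS 3, and at 0.393 with quercetin plus LPS 2. Quercetin plus LPS 1 correlated at -0.166 to 0.005 with the libraries of its own mouse and at 0.336 with control 2. The labels were kept. Libraries of 1 group were not duplicates by a chi-square comparison.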

Additional observations from a re-analysis of the deposited data

Results flagged for a closer look

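Within each group of 4 libraries, the library farthest from the rest was checked by Dixon's criterion for every member level and ratio, and 12 of 72 groups were marked. Chance marks about 1 in 20 of separate groups. Most marks here came from miR-24-2-5p and the ratios that contain it, so the groups are not separate and the shares cannot be compared. For miR-24-2-5p the marked libraries were quercetin plus LPS 1 at 255.21 CPM, against 0 to 9.17 in the others of its group, and control 2 at 728.34 CPM, against 0 in the others. The log2 ratio of miR-24-2-5p to miR-24-1-5p was marked in quercetin 1 (-6.34, others 5.66 to 6.07), LPS 1 (-8.71, others 5.38 to 6.10) and control 2 (5.76, others -8.66 to -7.37). That of the summed miR-24 5p arms to miR-24-3p was marked in the same libraries, at -8.53 in quercetin 1 (others -2.12 to -1.58), -7.44 in LPS 1 (others -1.82 to -1.37) and -1.65 in control 2 (others -7.63 to -7.09).

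LPS library 4 was low in miR-27a-5p (29.3 CPM, others 43.1 to 45.9) and high in miR-27b-5p (246 CPM, others 154 to 160.4), so that its log2 ratio of miR-27a-5p to miR-27b-5p was -3.07 (others -1.85 to -1.80). Mouse 4 was the mouse of 7 weeks. Control 2 was low in miR-23a-5p (1.44 CPM, others 1.76 to 1.82).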

How the results depend on the processing

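The count of members past the threshold was 1 in quercetin vs control with upper quartile scaling and 1 without the filter, in place of 3, and 3 in quercetin plus LPS vs LPS with library size scaling and 3 without the filter, in place of 5. Leaving out 1 library at a time gave 0 to 3, 0 to 4 and, averaged over LPS states, 5 to 6 members. Over all miRNAs it gave 0 to 5 calls in LPS vs control (main 3), 54 to 99 in quercetin vs control (90), 80 to 141 in quercetin plus LPS vs LPS (130), 2 to 7 in quercetin plus LPS vs quercetin (2), 179 to 209 averaged (206) and 0 for the interaction. LPS vs control had 1 call with library size scaling and 6 by DESeq2, and quercetin plus LPS vs quercetin 4 by DESeq2. The replicate block by mouse changed no member call, with 3, 5 and 6 members past the threshold; for the ratios, paired by mouse, 0 passed for either agent, as 4 mice cannot give a p below 0.125. With 5 added to each count 1 ratio passed for quercetin and 1 for LPS, in place of 3 and 3, and leaving out 1 library gave 0 to 3 and 1 to 3. No called value changed sign under these settings. In the averaged comparison the calls of miR-23a-5p, miR-24-1-5p, miR-24-3p and miR-27a-5p were kept under every setting run, while miR-27a-3p had an adjusted p of 0.0503 with upper quartile scaling. Depth limits miR-23a-5p most, at 1 to 23 counts per library. The cause of these changes was not tested.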
